A study of Mus musculus with 8 samples.

Results

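The integrin and laminin chains were chosen by their gene symbols, as every gene of the deposited gene table named *Itga*, *Itgb*, *Lama*, *Lamb* or *Lamc* with a chain designation. They numbered 36 of 18605 genes, namely 17 integrin alpha chains, 8 integrin beta chains, 5 laminin alpha chains, 3 laminin beta chains and 3 laminin gamma chains. The rule used no measured value. They were measured by RNA-seq in C3H10T1/2, a mesenchymal cell line from embryos of the C3H mouse strain, kept in DMEM with serum. NC cells carried a non-target control, and KD-Nap1l2 cells carried a lentiviral short hairpin RNA (shRNA) against *Nap1l2*, which encodes a histone chaperone. Both were sequenced before (day 0) and after 7 days of osteogenic induction (NC-7day and KD-Nap1l2-7day), with 2 libraries in each of the 4 groups. All groups share the same line, and the sources used here do not say whether the libraries of a group came from separate cultures, so p-values measure only the spread between these libraries.

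Integrins are cell surface receptors in which an alpha chain pairs with a beta chain, and the pair decides which ligand is held. Pairs with ITGA1, ITGA2, ITGA10 or ITGA11 bind collagens, those with ITGA5, ITGA8 or ITGAV bind the arginine-glycine-aspartate motif of fibronectin, vitronectin and osteopontin, and those with ITGA3, ITGA6 or ITGA7 bind laminins. Laminins are the cross-shaped trimers of the basement membrane, each built from an alpha, a beta and a gamma chain. In mesenchymal cells that turn towards bone, adhesion to collagen and fibronectin is known to feed into differentiation.

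Library totals ran from 17420284 to 19427359 estimated counts. The targeted gene was near the detection limit, and its few counts did not follow the label. *Nap1l2* had 3 and 3 estimated counts in the NC libraries, 2 and 7 in KD-Nap1l2, 15 and 5 in NC-7day, and 7 and 13 in KD-Nap1l2-7day. Its difference between KD-Nap1l2 and NC was 0.64 on the log2 scale at day 0 (edgeR quasi-likelihood test, Benjamini-Hochberg adjusted p = 0.812). The groups are therefore spoken of as the libraries labelled NC and KD-Nap1l2. Of 13 mesenchymal markers, 11 exceeded 1 FPKM in every library, FPKM being fragments scaled to the kilobases of transcript and to the sequenced fragments of the library. *Nt5e*, which encodes the mesenchymal surface marker CD73, reached at most 0.05 FPKM. Leukocyte markers summed to between 4.78 and 12.2 FPKM, with 4 of the 6 found under 1 FPKM throughout.

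FPKM is a level per transcript length, so chains can be set beside each other. Of the 36 chains, 8 were at or above 10 FPKM in every library, 12 stayed under 1 FPKM in every library, and 16 lay between. The 8 abundant ones were *Itga5*, *Itgav*, *Itgb1*, *Itgb5*, *Lama4*, *Lamb1*, *Lamb2* and *Lamc1*, which hold at least a chain of each class. The 12 scarce ones were *Itga2*, *Itga9*, *Itga11*, *Itgad*, *Itgae*, *Itgal*, *Itgam*, *Itgb6*, *Lama1*, *Lama2*, *Lama3* and *Lamc3*. A filter on low counts passed 30 chains of the 36 and 13470 of all genes. *Itga2*, *Itgad*, *Itgam*, *Lama1*, *Lama3* and *Lamc3* were not tested, and none of these 6 had more than 11 estimated counts in a library.

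**Figure D1:**
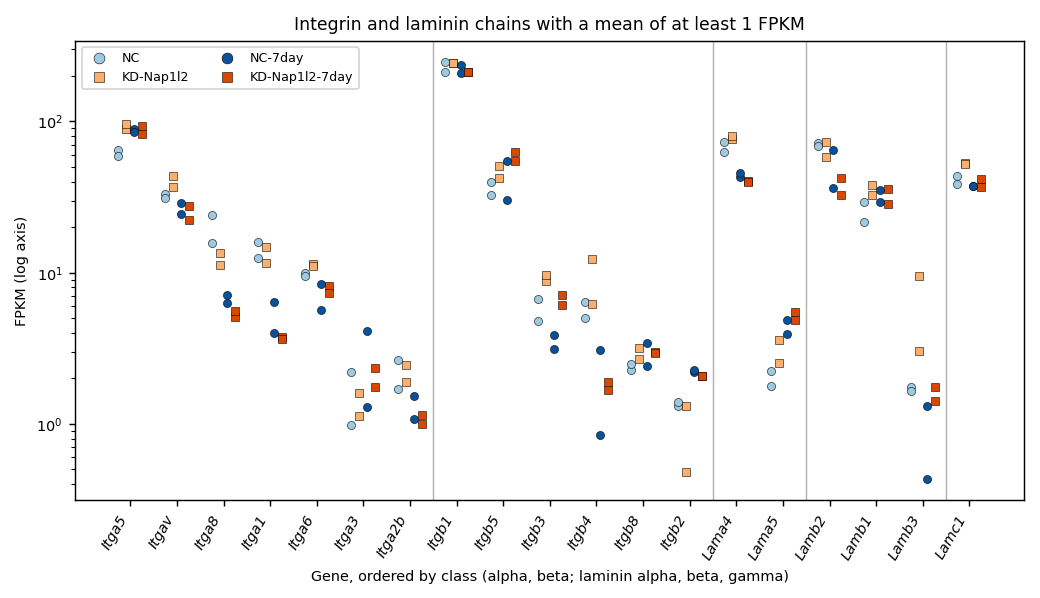
FPKM on a log axis of 19 integrin and laminin chains with a mean of at least 1 FPKM over all libraries, with a point for each library, a colour and shape for each group, and vertical lines between classes. *Itgb1* is the highest chain, at 208 to 249 FPKM, and *Itga1*, *Itga8* and *Lama4* sit lower at day 7 than at day 0 while *Lama5* sits higher.

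Among alpha chains, *Itga5*, the fibronectin receptor alpha chain, was the most abundant in every library. Its level was 64.3 and 58.7 FPKM in NC, 89.7 and 96.1 in KD-Nap1l2, 89.6 and 85.2 in NC-7day, and 82.6 and 93.1 in KD-Nap1l2-7day. The NC libraries were the lowest, and the other 6 libraries lay between 82.6 and 96.1 FPKM. *Itga5* made up 41.8% and 43.6% of the summed alpha chain FPKM in NC and between 52.1% and 67.3% in the other libraries. *Itgav*, the alpha chain of vitronectin receptors, came next with 16.2% to 24.0%. The laminin receptor chain *Itga6* held 4.17% to 7.08%, while the other laminin-binding alpha chains were low, *Itga3* reaching at most 4.11 FPKM and *Itga7* at most 1.26 FPKM. The platelet chain *Itga2b* stayed at or below 2.66 FPKM, and all 4 platelet markers stayed under 1 FPKM. *Itga4*, the alpha chain of a VCAM-1 and fibronectin receptor, lay between 0.63 and 1.07 FPKM, and *Itgae*, the alpha chain of tissue lymphocytes, reached at most 0.35 FPKM.

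*Itgb1*, the common partner of the collagen, fibronectin and laminin receptors, dominated the beta chains with 73.1% to 83.0% of their summed FPKM. It measured 249 and 211 FPKM in NC, 242 and 245 in KD-Nap1l2, 237 and 208 in NC-7day, and 213 and 211 in KD-Nap1l2-7day. The KD-Nap1l2 libraries lay above all 4 day 7 libraries and within the range of NC, and its difference did not pass the test in any comparison. *Itgb5*, a partner of ITGAV, followed with 30.4 to 62.7 FPKM. *Itgb3*, the other vitronectin receptor beta chain, ranged from 3.11 to 9.72 FPKM, and *Itgb4*, the laminin receptor chain of epithelial hemidesmosomes, from 0.84 to 12.4. *Itgb2*, the leukocyte beta chain, ranged from 0.48 to 2.29 FPKM although its tabled partners *Itgad*, *Itgal* and *Itgam* did not exceed 0.21 FPKM. *Itgb7* and *Itgb8* stayed under 2 and 4 FPKM respectively, and *Itgb6* did not pass 0.31 FPKM.

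The laminin mRNAs were mostly of the chains *Lama4*, *Lamb1*, *Lamb2* and *Lamc1*. *Lama4*, the short alpha chain of mesenchymal and vessel basement membranes, made up 95.2% to 96.6% of the laminin alpha FPKM at day 0 and 86.9% to 90.2% at day 7. *Lama5*, the long alpha chain found in most adult basement membranes, made up 2.71% to 4.26% at day 0 and 8.30% to 12.1% at day 7. Those ranges did not overlap between days. *Lamb2* exceeded *Lamb1* in 7 of the 8 libraries, the exception being the first KD-Nap1l2-7day library with 32.8 against 35.5 FPKM. *Lamc1*, the gamma chain of most laminins, was at 37.1 to 52.9 FPKM, and *Lamc3* stayed at or under 0.10 FPKM.

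**Figure D2:**
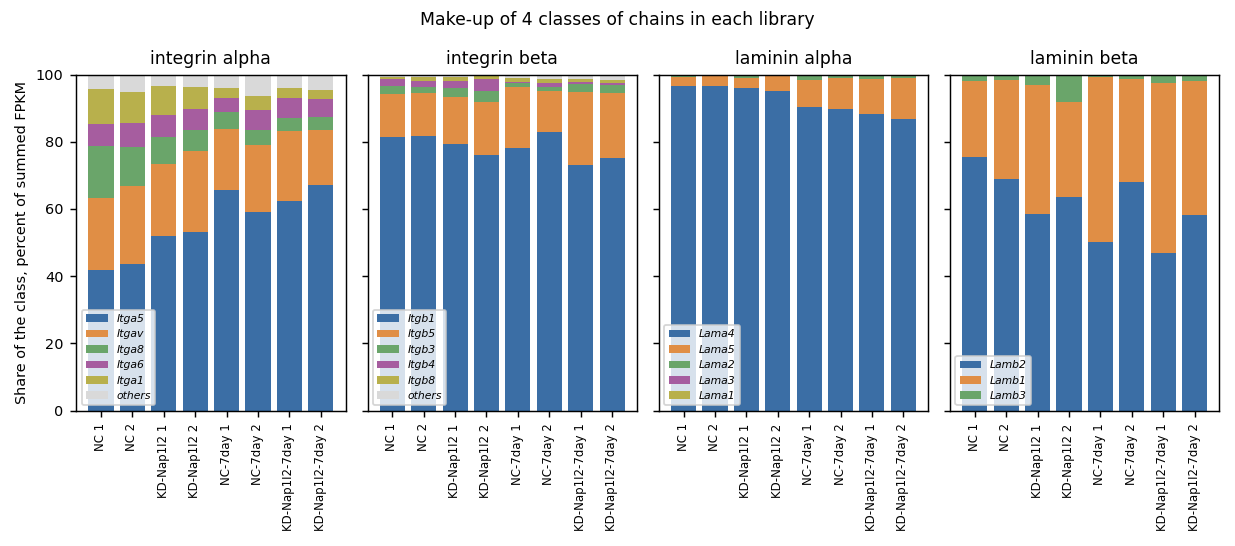
Share of each chain in the summed FPKM of its class (y axis, percent) in each of the 8 libraries (x axis), for 4 classes of chains, with the smaller alpha and beta chains joined as others. *Itga5* takes 41.8% and 43.6% of the alpha chains in NC and 52.1% or more elsewhere, and the share of *Lama5* is 2.71% to 4.26% at day 0 and 8.30% to 12.1% at day 7.

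Day 7 of osteogenic induction was compared with day 0 first in the NC cells. No culture kept for 7 days without induction is among the libraries. In each comparison of days, the induction medium and the 7 days in culture therefore cannot be told apart. A collagen receptor chain, *Itga1*, a fibronectin and nephronectin receptor chain, *Itga8*, the tenascin and osteopontin receptor chain *Itga9* and the laminin chain *Lama4* fell, while the collagen receptor chain *Itga10* and the laminin chain *Lama5* rose. These were 6 of the 30 tested chains, with 4 lower and 2 higher at adjusted p under 0.05 in edgeR's quasi-likelihood test. Over all 13470 genes tested, 8.21% were called, 4.83% higher and 3.38% lower. DESeq2 called 7 chains, beside 1555 of these genes. It added *Itga5*, which was higher, and *Itgb3*, which was lower (adjusted p = 0.0275 and 0.0288), and left out *Itga9*. *Itga5* was also called by limma on log2(FPKM + 1) and log2(FPKM + 0.1) (adjusted p = 0.0401 and 0.0404). At an unadjusted p under 0.05, 14 chains passed, 4 higher and 10 lower, and 24.5% of all genes did, 12.9% higher and 11.6% lower. The median log2 fold change was −0.19 over the chains and −0.0035 over all genes. The libraries of the groups did not overlap for 22 chains, against 57.8% of all genes.

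*Itga8* (chromosome 2, 12106632 to 12301985, build GRCm38.p6) was at 24.1 and 15.6 FPKM in NC and at 7.07 and 6.31 in NC-7day. Both day 7 libraries were below both day 0 libraries, and the level was 2.98-fold lower (log2 fold change −1.57, SE 0.21, adjusted p = 0.00621). *Itga1* (chromosome 13, 114958079 to 115101964) was at 16.0 and 12.5 FPKM in NC and at 4.02 and 6.38 in NC-7day. It was 2.76-fold lower, again without overlap (log2 fold change −1.47, SE 0.22, adjusted p = 0.00851). In bulk RNA, fewer cells that express a chain and less mRNA in each cell cannot be told apart.

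*Lama4* (chromosome 10, 38965515 to 39110188) went from 63.2 and 73.2 FPKM to 43.0 and 45.8, a smaller change of 1.54-fold lower (log2 fold change −0.62, SE 0.14, adjusted p = 0.0310). *Lama5* (chromosome 2, 180176373 to 180225904) went the other way, from 1.77 and 2.24 FPKM to 3.96 and 4.86. It was 2.18-fold higher (log2 fold change 1.13, SE 0.22, adjusted p = 0.0226). The level of *Lama5* at day 7 was still less than that of *Lama4* in every library.

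Of the chains with few reads, *Itga10* (chromosome 3, 96645584 to 96664519) had 39 and 27 estimated counts in NC and 100 and 81 in NC-7day. It was 2.90-fold higher (log2 fold change 1.53, SE 0.36, adjusted p = 0.0389), at 0.41 and 0.27 FPKM and then 1.13 and 0.86 FPKM. *Itga9* (chromosome 9, 118606709 to 118901003) had 17 and 17 estimated counts in NC and 2 and 2 in NC-7day. The ratio of the summed counts was 8.06-fold lower at day 7, with an exact 95% interval for counting error from 2.87 to 31.3, and its call rested on these few reads (adjusted p = 0.0281). It was not called by DESeq2 (adjusted p = 0.128), by limma on log2(FPKM + 1) or log2(FPKM + 0.1) (adjusted p = 0.235 and 0.0927), or when any 1 of the 4 libraries was left out (adjusted p from 0.106 to 0.180).

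When a library is left out, the other one of its group is taken to vary like the libraries of the other groups. Each NC and NC-7day library was left out in turn. The log2 fold change lay between −1.86 and −1.22 for *Itga8* and between −1.80 and −1.20 for *Itga1*. For *Lama4* it lay between −0.72 and −0.52, for *Lama5* between 0.97 and 1.30, and for *Itga10* between 1.26 and 1.86. Which chains were called changed with the library left out. Fewer of all genes were called in each of these runs too, so the loss of calls was not confined to these chains.

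**Figure D3:**
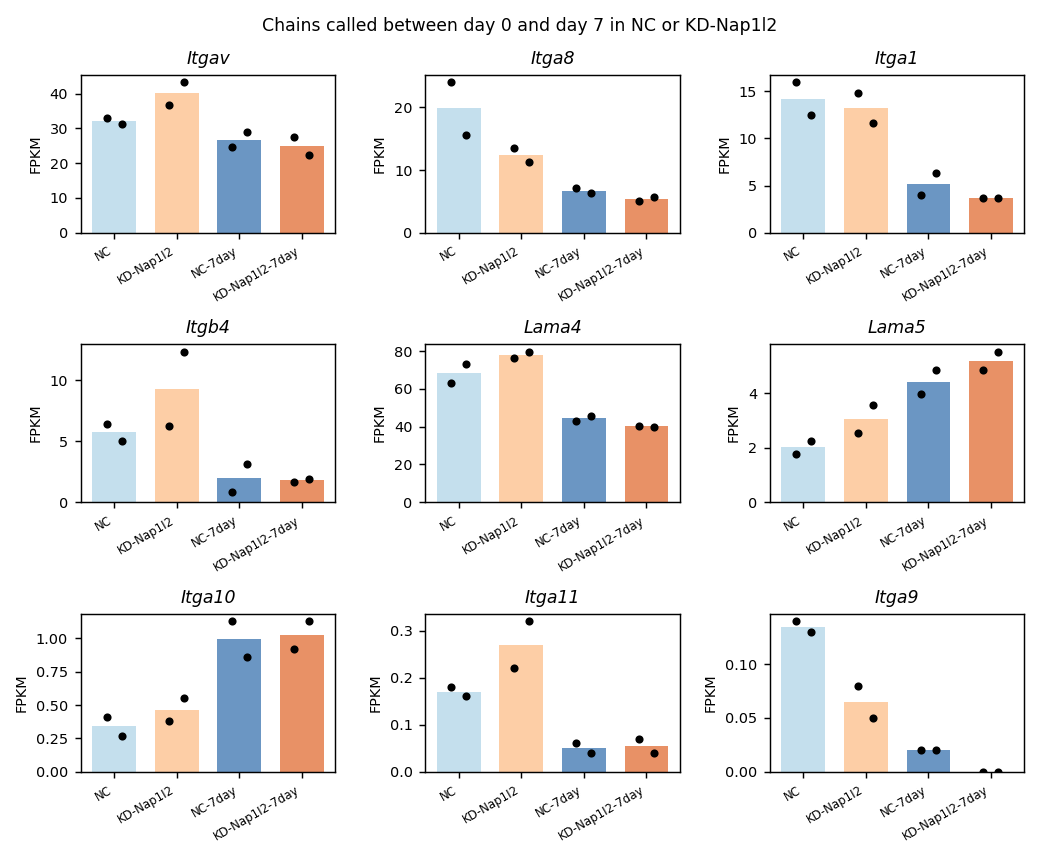
FPKM (y axis, from 0) of the 9 chains called between day 0 and day 7 in NC or in KD-Nap1l2, with a point for each library and a bar at the mean of its 2 libraries in each of the 4 groups. *Itga1* and *Itga8* are lower in all 4 day 7 libraries than in any day 0 library, and *Lama5* and *Itga10* are higher.

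In the libraries labelled KD-Nap1l2, 7 of the 30 tested chains were called over the same 7 days, and all 7 fell. They were *Itga1*, *Itga8*, *Itga9* and *Lama4*, which were also called in NC, together with the collagen receptor chain *Itga11*, the vitronectin receptor chain *Itgav* and the hemidesmosome chain *Itgb4*. Over all genes tested, 14.2% were called, 6.84% higher and 7.36% lower. At an unadjusted p under 0.05, 20 chains passed, 5 higher and 15 lower, beside 31.4% of all genes, 15.3% higher and 16.1% lower. DESeq2 called 12 chains, beside 17.7% of all genes. The median log2 fold change was −0.30 over the chains and −0.0070 over all genes. The chains' median stayed at −0.30 with *Itga9* set to a floor of 3 counts at day 7. The groups did not overlap for 24 chains, against 61.4% of all genes.

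*Itga1* was at 14.8 and 11.6 FPKM in KD-Nap1l2 and at 3.73 and 3.63 in KD-Nap1l2-7day. This was 3.57-fold lower (log2 fold change −1.83, SE 0.22, adjusted p = 0.00299). *Itga8* went from 13.5 and 11.3 FPKM to 5.08 and 5.62, which was 2.30-fold lower (log2 fold change −1.20, SE 0.21, adjusted p = 0.0116). *Lama4* went from 76.5 and 79.8 FPKM to 40.5 and 39.7, which was 1.94-fold lower (log2 fold change −0.96, SE 0.14, adjusted p = 0.00531). None of these 3 chains overlapped between days.

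*Itgav* (chromosome 2, 83722303 to 83806917) was at 36.9 and 43.4 FPKM in KD-Nap1l2 and at 27.6 and 22.4 in KD-Nap1l2-7day, or 1.61-fold lower (log2 fold change −0.69, SE 0.17, adjusted p = 0.0344). It was called by DESeq2 (adjusted p = 0.00270) but not by edgeR from the compared groups alone (adjusted p = 0.0658). *Itgb4* (chromosome 11, 115974725 to 116008412) was at 6.24 and 12.4 FPKM and then at 1.68 and 1.89. It was 5.28-fold lower (log2 fold change −2.40, SE 0.55, adjusted p = 0.0281), with the second KD-Nap1l2 library high. *Itga11* (chromosome 9, 62677855 to 62783979) had 19.2 and 29.1 estimated counts and then 6.18 and 3.75, a 4.67-fold lower level (log2 fold change −2.22, SE 0.49, adjusted p = 0.0247). It was not called by DESeq2 (adjusted p = 0.0585) or by limma on log2(FPKM + 1) (adjusted p = 0.0658). With limma on log2(FPKM + 0.1) it was called (adjusted p = 0.0349). *Itga9* had 7 and 6 counts at day 0 and none in either library at day 7. With the day 0 counts taken as exact, it was at least 4.27-fold lower, as a bound against a floor of 3 counts over the group. Its call came from the edgeR fit and not from this bound (adjusted p = 0.0206). This call was lost with limma (adjusted p = 0.425 and 0.153) and without the second KD-Nap1l2 library or either KD-Nap1l2-7day library (adjusted p from 0.0607 to 0.118). The chains called higher in NC were also higher here without passing the test, *Lama5* at 2.54 and 3.57 and then 4.85 and 5.52 FPKM (adjusted p = 0.0562), and *Itga10* at 0.38 and 0.55 and then 0.92 and 1.13 FPKM (adjusted p = 0.0650). *Lama5* was called by DESeq2 (adjusted p = 0.0182) and by edgeR with no filter on low counts (adjusted p = 0.0428), but not by limma. *Itga10* was called by limma on log2(FPKM + 1) (adjusted p = 0.0471), but not by DESeq2.

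With each KD-Nap1l2 or KD-Nap1l2-7day library left out in turn, the log2 fold change of *Itga1* lay between −1.94 and −1.72. It lay between −1.29 and −1.12 for *Itga8*, between −1.05 and −0.86 for *Lama4* and between −0.86 and −0.49 for *Itgav*. For *Itgb4* it lay between −2.85 and −1.74 and for *Itga11* between −2.53 and −1.84. Which chains were called rested on single libraries, and the number of all genes called moved with the library left out as well.

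**Figure D4:**
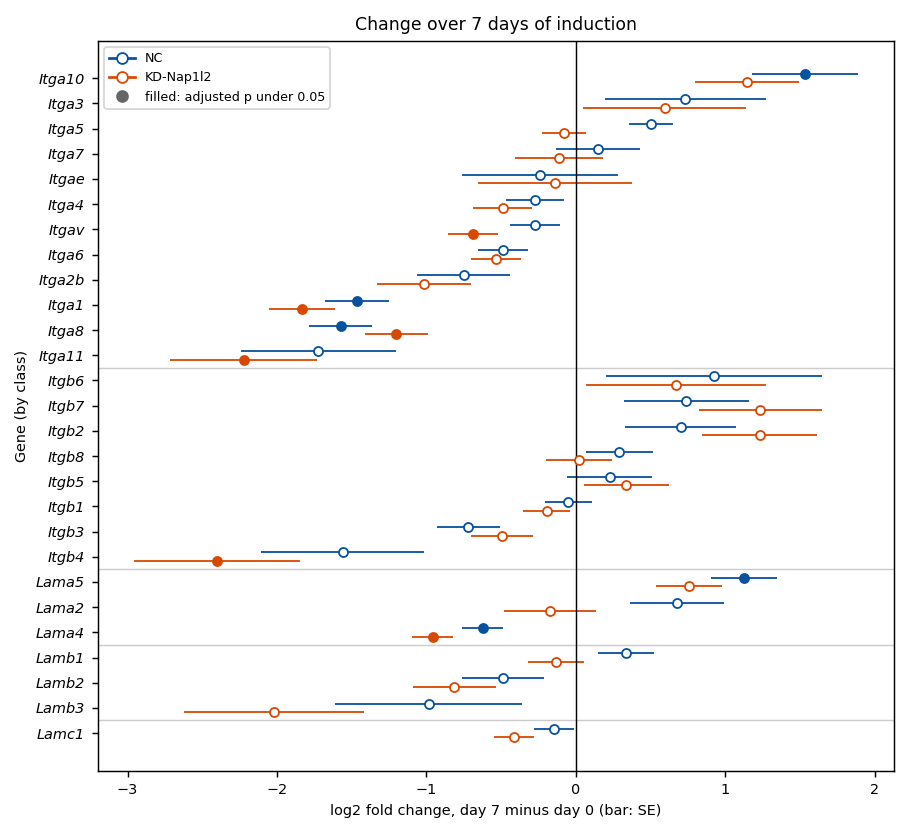
log2 fold change from day 0 to day 7 (x axis, bars give the standard error) of 27 tested chains in NC (blue) and KD-Nap1l2 (orange), with filled points for adjusted p under 0.05. *Itga9* and *Itgal* are left out because their day 7 groups summed to 4 counts or fewer. *Itga1*, *Itga8* and *Lama4* lie left of 0 with filled points in both, and *Itga10* and *Lama5* lie right of 0.

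The 250 bases before the annotated transcription start are shown for *Itga1* and *Itga8*, the most strongly supported falls by adjusted p in NC, and for *Itga10* and *Lama5*, the called rises. They are taken from RefSeq on GRCm38.p6, which gave a promoter for 22 of the 36 chains, 25 promoters in all. They are printed 5′ to 3′ on the strand of the gene. The RefSeq starts used for *Itga8* and *Lama5* lie inside the gene spans given above, so that the last 41 and 45 bases printed fall within those spans. Capitals mark GC boxes (GGGCGG) and TEAD motifs (GGAATG), found on either strand and without overlap.
*Itga1*, chr13:115101965-115102214, minus strand: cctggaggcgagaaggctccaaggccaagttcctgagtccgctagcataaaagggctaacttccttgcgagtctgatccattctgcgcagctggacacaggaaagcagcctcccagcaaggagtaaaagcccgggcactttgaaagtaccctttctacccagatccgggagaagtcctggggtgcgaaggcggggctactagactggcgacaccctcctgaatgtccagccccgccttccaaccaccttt
*Itga8*, chr2:12301945-12302194, minus strand: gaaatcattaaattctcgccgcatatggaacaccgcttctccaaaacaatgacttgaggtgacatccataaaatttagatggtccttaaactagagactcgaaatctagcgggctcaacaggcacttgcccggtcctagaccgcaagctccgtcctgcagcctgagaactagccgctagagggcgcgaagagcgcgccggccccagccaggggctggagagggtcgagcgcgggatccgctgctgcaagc
*Itga10*, chr3:96645334-96645583, plus strand: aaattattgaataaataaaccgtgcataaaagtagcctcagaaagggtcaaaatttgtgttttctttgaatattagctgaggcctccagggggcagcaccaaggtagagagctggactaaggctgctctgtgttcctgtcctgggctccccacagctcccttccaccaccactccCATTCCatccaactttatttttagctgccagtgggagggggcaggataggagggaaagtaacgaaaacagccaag
*Lama5*, chr2:180225860-180226109, minus strand: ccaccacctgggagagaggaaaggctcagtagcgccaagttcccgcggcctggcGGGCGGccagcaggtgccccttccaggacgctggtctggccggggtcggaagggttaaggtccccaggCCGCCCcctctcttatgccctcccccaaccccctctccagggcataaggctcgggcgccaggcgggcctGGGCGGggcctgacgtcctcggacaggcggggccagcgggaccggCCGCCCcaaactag

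The *Lama5* promoter held 4 GC boxes and 72.4% G and C, and *Itga10* held 1 TEAD motif and 48% G and C. *Itga1* and *Itga8* held neither motif, with 57.6% and 56.4% G and C. None of these 4 held a TATA box (TATAAA), an AP-1 motif (TGANTCA) or a RUNX motif (ACCACA), so neither pair that moved the same way shared any of the 5 motifs searched. Over all 32851 promoters, 32.7% held a GC box, 12.6% a TEAD motif, 12.4% a TATA box, 6.75% an AP-1 motif and 14.0% a RUNX motif. Of the 25 promoters of integrin and laminin chains, 9, 3, 0, 0 and 2 did so, in that order. Their median content of G and C was 58.4%, against 52.4% over all promoters.

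Whether the change over induction differed for KD-Nap1l2 and NC was tested as the difference of both changes. None of the 30 chains was called by edgeR, and 0% of all genes was. At an unadjusted p under 0.05 there was 1 chain, *Itga5*, against 7.04% of all genes. DESeq2 called none of the chains, and 98 genes or 0.728% of all. *Itga5* changed by 0.50 on the log2 scale in NC (SE 0.15) and by −0.08 in KD-Nap1l2 (SE 0.15), a difference of −0.58 (SE 0.21, adjusted p = 0.680). *Lama2*, the laminin alpha chain of muscle and nerve, followed with a difference of −0.85 (SE 0.44, adjusted p = 0.731) at levels of at most 0.63 FPKM. *Itga9* had the next smallest p, and no fold is given because its KD-Nap1l2-7day libraries were at 0. For *Itga1* the difference was −0.37 (SE 0.30) and for *Itga8* 0.37 (SE 0.29), both smaller than 2 standard errors. The median difference was −0.27 over the chains and −0.019 over all genes. It rested on single libraries, at −0.068 over the chains without the second KD-Nap1l2 library and at −0.43 without the first. Both changes draw on the same fit, and a chain called in KD-Nap1l2 and not in NC, such as *Itgav*, *Itgb4* or *Itga11*, is not shown to differ between them.

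Before induction, edgeR called no chain for KD-Nap1l2 against NC, and 0.0817% of all genes (11 genes). DESeq2 called 2 chains, *Itga5* (adjusted p = 0.0145) and *Lamb3* (adjusted p = 0.0135), and 460 genes or 3.41% of all. An unadjusted p under 0.05 in edgeR was passed by 8 chains, 6 higher and 2 lower, and by 13.7% of all genes, 7.02% higher and 6.73% lower. The most supported was *Itga5*, whose 89.7 and 96.1 FPKM in KD-Nap1l2 were above the 64.3 and 58.7 in NC by 1.51-fold (log2 fold change 0.59, SE 0.15, adjusted p = 0.154). *Itga8* was at 13.5 and 11.3 FPKM against 24.1 and 15.6, with a log2 fold change of −0.69 (SE 0.21, adjusted p = 0.206). *Itgb3* was at 8.86 and 9.72 FPKM against 6.70 and 4.82, with a log2 fold change of 0.69 (SE 0.21, adjusted p = 0.210). In each of these 3 chains the groups did not overlap. Over all 30 chains, 21 had a higher fitted level in KD-Nap1l2, against 6936 of all 13470 genes. By class, 7 of 14 integrin alpha, 7 of 8 integrin beta, 3 of 3 laminin alpha and 2 of 3 laminin beta chains were higher. *Lamc1* was higher too, and *Lamb2* was lower, with a log2 fold change of −0.09. The median log2 fold change was 0.30 over the chains and 0.011 over all genes. The chains' median was 0.30 with RLE scaling and with DESeq2, 0.24 with limma on log2(FPKM + 0.1) and 0.13 with limma on log2(FPKM + 1). Without the second KD-Nap1l2 library it was 0.13. The groups did not overlap for 18 chains, against 43.2% of all genes.

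*Lamb3*, a chain of epithelial laminin, had the greatest fitted difference before induction and was picked out after its values were seen. It was at 1.75 and 1.65 FPKM in NC and at 3.03 and 9.55 in KD-Nap1l2 (log2 fold change 1.92, SE 0.60, adjusted p = 0.222). The second KD-Nap1l2 library was well above the first, and the same library was high in *Itgb4*, at 12.4 against 6.24 FPKM. Without the first KD-Nap1l2 library, the log2 fold change was 2.56 for *Lamb3* and −1.46 for *Itgb2*. *Itgb2* was thus lower, at 0.48 FPKM in the second KD-Nap1l2 library. The 7 epithelial markers summed to 2.61 FPKM in the first KD-Nap1l2 library and to 1.32 in the second, which was the one high in *Lamb3* and *Itgb4*. In NC they summed to between 1.30 and 1.68 FPKM, and 5 of the 7 were under 1 FPKM in every library. The part of these markers in the levels of *Lamb3* and *Itgb4* was not tested.

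After 7 days of induction, edgeR called no chain for KD-Nap1l2-7day against NC-7day, and 0% of all genes. DESeq2 called 1 chain, *Itgb3* (adjusted p = 0.0360), and 79 genes or 0.586% of all. An unadjusted p under 0.05 in edgeR was passed by 3 of the 30 chains and by 7.85% of all genes, a share near that of the chains. *Itgb3* was at 7.07 and 6.10 FPKM in KD-Nap1l2-7day and at 3.90 and 3.11 in NC-7day, without overlap, a 1.88-fold higher level (log2 fold change 0.91, SE 0.21, adjusted p = 0.452). *Itga7*, the laminin receptor chain of muscle, was at 0.50 and 0.73 FPKM against 0.86 and 1.26 (log2 fold change −0.78, SE 0.29, adjusted p = 0.558). *Itga9* had 0 counts in both libraries against 2 and 2, too few to compare. The median log2 fold change was −0.035 over the chains and −0.0056 over all genes, and the groups did not overlap for 13 chains, against 42.1% of all genes.

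**Figure D5:**
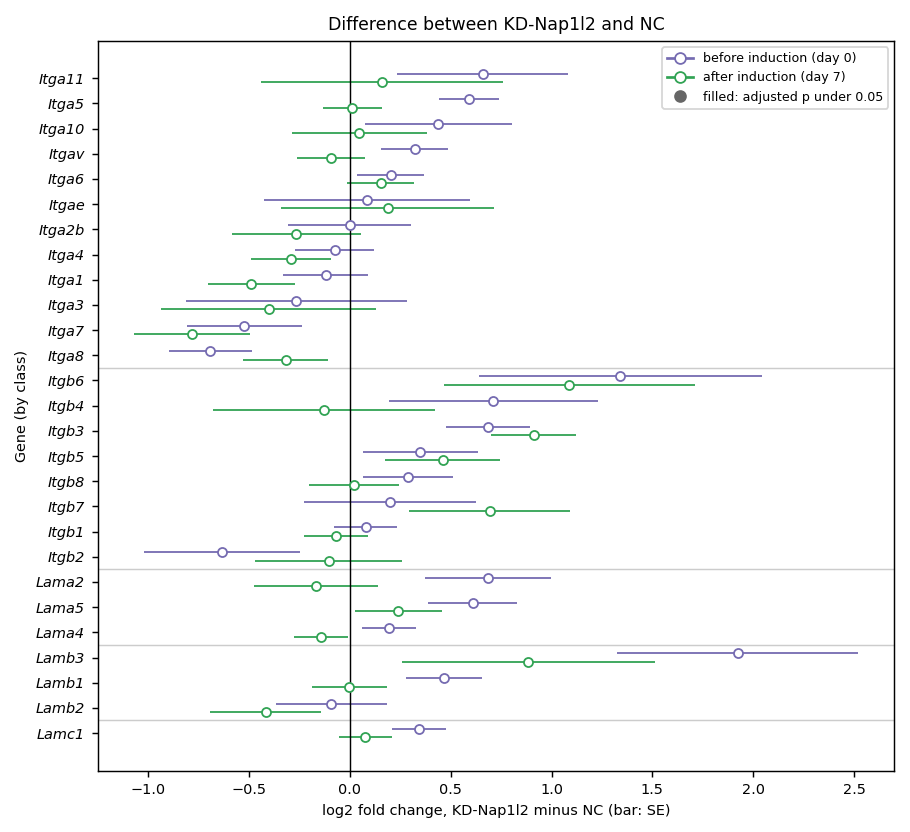
log2 fold change between KD-Nap1l2 and NC (x axis, bars give the standard error) of 27 tested chains before induction (purple) and after 7 days of induction (green). Open points did not pass adjusted p under 0.05, which holds for all of them; *Itga9* and *Itgal* are left out because their day 7 groups summed to 4 counts or fewer. *Itgb3* lies right of 0 in both, at 0.69 and 0.91, and *Itga5* lies at 0.59 before and at 0.01 after induction.

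The deposited transcript values tell which mRNA forms stood behind these levels. Of the 20 chains with a mean of at least 1 FPKM, 7 had a single transcript in the table, *Itga1* and *Itgb1* among them. In another 5 (*Itga5*, *Itga8*, *Itgav*, *Itgb5* and *Lama5*) the same transcript held over 85% of the gene's FPKM in every library. The falls of *Itga1* and *Itga8* and the rise of *Lama5* therefore concern the main annotated transcript of each. The remaining 8 were mixed, as for *Lamb1*, whose curated transcript held 46.2% to 65.6%, and *Lamb2*, whose curated transcript held 69.7% to 87.7%. In *Itga6* the curated transcript held 65.3% to 100%.

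*Lamb3* was the most uneven, which was noted after its values were seen. Its curated transcript was at 0.49 and 0.77 FPKM in NC and at 2.51 and 6.87 in KD-Nap1l2. It was listed at 0 in both NC-7day libraries and at 0.50 and 0.85 in KD-Nap1l2-7day. The main predicted transcript was at 1.26 and 0.83, at 0.51 and 2.68, at 0.42 and 1.22, and at 1.26 and 0.54 FPKM, in the same order of groups. So the higher *Lamb3* level in KD-Nap1l2 lay mostly in the curated form in both libraries. Such splits are estimates from reads that the forms share, and no test was made on them.

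Around these receptors and trimers, 3 lists of partner genes were followed. Of 32 tested activators and adaptors of integrins, 4 rose and none fell in NC over the 7 days, and 2 rose and 2 fell in KD-Nap1l2. Of all genes, 8.21% were called in NC (4.83% higher, 3.38% lower) and 14.2% in KD-Nap1l2 (6.84% higher, 7.36% lower), so the adaptors' 4 of 32 in KD-Nap1l2 were near the share of all genes. Their median log2 fold change was 0.18 and −0.10. *Tns1*, which encodes the adhesion adaptor tensin, rose in both, from 22.6 and 24.2 FPKM to 109 and 93.4 in NC (log2 fold change 2.11, adjusted p = 0.00143) and from 22.5 and 27.2 to 96.8 and 93.5 in KD-Nap1l2 (1.94, adjusted p = 0.00112). *Apbb1ip*, whose product links RAP1 to talin, rose by 0.92 and 0.97 on the log2 scale. *Parvb*, which encodes a parvin, rose in NC by 0.85, and *Vcl*, which encodes vinculin, fell by 0.82 in KD-Nap1l2. Partner genes are named by the smallest adjusted p in each comparison. A gene named only in NC or only in KD-Nap1l2 can therefore have moved in the other as well.

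Of 27 tested integrin ligands other than laminins, 2 rose and 6 fell in NC, and 2 rose and 11 fell in KD-Nap1l2, with medians of −0.40 and −0.82. The falls compare with 3.38% and 7.36% of all genes called lower. *Edil3*, an ITGAV ligand, fell by 2.22 and by 2.30 on the log2 scale. *Ctgf*, a matricellular ligand, rose by 1.23 and 2.24, *Col3a1* fell by 1.46 in NC, and *Fbn1*, which encodes fibrillin, fell by 1.34 in KD-Nap1l2. *Col3a1* was lower at day 7 in KD-Nap1l2 too, at 527 and 716 and then 144 and 127 FPKM. *Fbn1* was lower in NC too, at 47.25 and 50.29 and then 29.57 and 33.11 FPKM. Of 23 tested basement membrane components and other laminin binders, 1 rose and 2 fell in NC, and none rose and 10 fell in KD-Nap1l2, with medians of −0.22 and −0.75, beside the same shares of all genes. *Col15a1* fell in both, from 209 and 191 FPKM to 11.5 and 42.9 in NC (log2 fold change −2.90, adjusted p = 0.0175) and from 106 and 80.1 to 6.10 and 9.45 in KD-Nap1l2 (−3.56, adjusted p = 0.00737). *Col4a2*, which encodes a collagen IV chain, rose by 0.97 in NC, where *Sparc* fell by 0.99. *Nid2*, which encodes the laminin-binding nidogen, fell by 1.77 and *Pxdn* by 0.98 in KD-Nap1l2.

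Between KD-Nap1l2 and NC, 1 partner gene was called before induction, *Col2a1*, a cartilage collagen, at 6.10 and 6.29 against 1.02 and 1.07 FPKM (log2 fold change 2.56, adjusted p = 0.0478). None of the 82 partner genes tested was called by edgeR after induction or for the difference of the changes. At an unadjusted p under 0.05 in edgeR, 3 adaptors, 5 ligands and 6 basement membrane genes passed after induction, and the same numbers of each passed for the difference, beside 7.85% and 7.04% of all genes.

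Marker lists of other cell types were summed over the same 7 days. The summed FPKM of 13 mesenchymal markers, 3 of which are collagens of the ligand list, was 6804 to 8895 at day 0 and 4358 to 5686 at day 7. Most of it was *Vim*, *Ly6a* and the collagens, with *Vim* at 2862 to 4538 and then 1562 to 2414 FPKM, while *Cd44* (35.7 to 49.1, then 36.8 to 52.7) and *Eng* (16.2 to 20.5, then 20.4 to 25.9) were not lower at day 7. That of 7 adipocyte markers was 32.5 to 60.8 at day 0 and 177 to 229 at day 7, with 3 of the 7 above 1 FPKM in every library. Most of it was *Fabp4*, at 7.69 to 25.1 and then 138 to 181 FPKM, and *Pparg*, while *Cebpa* was at 1.5 to 4.29 and then 0.51 to 1.41 FPKM and *Adipoq* and *Plin1* reached at most 0.83 and 0.06. That of 8 osteoblast markers, most of it *Spp1*, was 1086 to 1304 at day 0 and 1487 to 3703 at day 7. *Dmp1* went the other way, at 2.55 to 11.4 and then 1.46 to 3.14 FPKM. *Runx2* (10.5 to 15.6, then 13.2 to 16.0), *Bglap* (0 to 1.83, then 0.42 to 2.83) and *Phex* (0.39 to 3.10, then 0.35 to 3.33) overlapped between days. *Sp7*, *Alpl* and *Ibsp* reached at most 0.12, 0.24 and 0.06 FPKM. *Spp1*, *Dmp1* and *Ibsp* are also in the ligand list. The part of these values in the falls of *Itga1*, *Itga8* and *Lama4* was not tested.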

How the data were processed

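RNA was extracted with Trizol and sequenced at the Beijing Genomics Institute. The submitters' processing notes name BWA, Bowtie2 and RSEM and the build GRCm38.p6, with no versions or roles. The authors deposited, per gene and per transcript, estimated counts that were not normalized and FPKM values scaled to transcript length and to each library. Fractional counts, which arise where a read matches several genes, were present for 8 of the 36 chains (*Itga4*, *Itga7*, *Itga9*, *Itga11*, *Itgam*, *Itgb1*, *Itgb3* and *Lama2*) and for 41.1% of all genes. In GENCODE M21, exons of the called chains *Itga1*, *Itga8*, *Itga10*, *Itgav* and *Itgb4* overlap other genes outside the deposited table, and use of strand in counting is not given in the sources used here. Deposited tables of the authors' own comparisons (log2 fold changes, p-values and q-values) were not used.

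Estimated counts were rounded to whole numbers and normalized by TMM. edgeR 4.0.16 (R 4.3.3) was used for 1 quasi-likelihood fit of the 8 libraries over the 13470 genes that filterByExpr kept. Each contrast was adjusted by Benjamini-Hochberg over these genes and called at adjusted p under 0.05. Standard errors were computed as the log2 fold change over the root of the F statistic. No group of 2 libraries can pass an exact permutation test, so single values are given per library. Intervals cover counting error only, and floors (3 counts) only that of the group without counts.

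Groups were taken from the sample titles. Results were recomputed with DESeq2 1.42.0, with RLE scaling, unfiltered, with a minimum of 10 counts in every library, from the compared groups alone, with a replicate block, with limma 3.58.1 (trend) on deposited log2(FPKM + 1) or log2(FPKM + 0.1), with a 2-fold minimum, and without each library in turn. The scripts were tested on simulated data. Named were the members by level, with test values for those called, or for the 3 with the smallest unadjusted p where fewer than 3 were called, *Nap1l2*, and of each partner list up to 3 called genes with the smallest adjusted p per comparison. *Lamb3* and *Itgb2*, and the differences for *Itga1* and *Itga8*, lie outside this rule. So do *Lama5* and *Itga10* in KD-Nap1l2, and *Itga5* and *Itgb3* for induction in NC. A chain that entered the fit and the counts is not reported here. The members and lists were chosen with earlier results of these data known. Figures were drawn with matplotlib 3.10.9 in Python 3.11.15.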

Additional observations from a re-analysis of the deposited data

How the results depend on the processing

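With 2 libraries per group and from 0 to 101 counts for *Itga9*, *Itga10* and *Itga11*, depth limits the precision of the scarce chains' values. *Itga8* in NC and *Itga1* in KD-Nap1l2 kept their call in every alternative run, at adjusted p of at most 0.0351 and 0.0406. Over the chains named with test values, 216 of 263 alternative values kept direction and side of the threshold, 43 no longer passed it, 2 newly passed it and 2 changed sign. All 43 belong to chains called in the main fit, while the 216 also count chains not called there that stayed so. The 216 therefore do not tell how often a call held. The 2 that changed sign were *Itga9* for the difference of the changes, at 0.063 with limma on log2(FPKM + 1) and at 0.25 on log2(FPKM + 0.1), and the cause was not tested. DESeq2 called 2 chains before induction (460 genes against 11 in edgeR), 1 after induction (79 against 0) and 12 for induction in KD-Nap1l2, 10 lower and 2 higher, against 7 in edgeR, of which it kept 5. It called 98 genes and no chain for the difference. The cause was not tested. Leaving out a library changed which chains were called for induction in NC and in KD-Nap1l2, and the number of all genes called there. Before induction, both changed in the run without the first KD-Nap1l2 library. Fewer libraries per group is part of that construction. The other alternatives kept the number of called chains within 1.5 times. Correlations of same-numbered deviations lay between −0.061 and 0.10 over 13470 genes. They showed no clear pairing of the libraries by replicate number, and correlations of this kind cannot exclude one. The replicate block gave 5 chains for induction in NC, without *Itga10* (adjusted p = 0.0629), 8 in KD-Nap1l2, without *Itgav* (adjusted p = 0.0513) and with *Itgal* (0.0427) and *Lama5* (0.0194), and 0 elsewhere.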

Other observations

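Outside the members named by rule, *Itgal*, the alpha chain of the leukocyte receptor LFA-1, had 12 and 9 estimated counts in NC and 3 and 0 in NC-7day, and 20 and 6 in KD-Nap1l2 and 1 and 0 in KD-Nap1l2-7day. The summed counts were 6.64-fold lower at day 7 in NC (exact 95% interval 1.98 to 34.8) and 25.6-fold lower in KD-Nap1l2 (4.21 to 1051), and neither passed the test (edgeR adjusted p = 0.187 and 0.0577). In KD-Nap1l2 it did pass with the replicate block (adjusted p = 0.0427) and with no filter on low counts (adjusted p = 0.0490). *Itgb2*, its partner, was at 1.32 and 1.39 FPKM in NC and 2.19 and 2.29 in NC-7day, and at 1.31 and 0.48 in KD-Nap1l2 and 2.07 and 2.08 in KD-Nap1l2-7day (adjusted p = 0.292 and 0.0695). Both chains were picked out after their values were seen. The leukocyte marker *Ptprc* reached at most 0.05 FPKM, and *Cd68* lay between 2.56 and 9.03 FPKM.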
